A study of Mus musculus with 8 samples.

Results

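The genes of oxidative phosphorylation were taken as all nuclear protein-coding genes of the mouse assembly GRCm38.p6 whose symbols begin with Nduf, Cox4 to Cox8, Uqcr or Atp5, together with Sdha, Sdhb, Sdhc and Sdhd. Members were chosen by symbol alone, which gave 96 of 21887 nuclear protein-coding genes. Open chromatin had been mapped by ATAC-seq, a method in which Tn5 places sequencing adapters into accessible DNA, in induced pluripotent stem cells of a clonal mouse line carrying the FUCCI2 cell cycle reporter. All cells were grown on irradiated feeder cells in KO-DMEM with FBS, LIF, a MEK inhibitor and a GSK3 inhibitor. Libraries were made from 50000 cells each. The 8 libraries form 4 groups of 2 replicates. One group was arrested with nocodazole, a drug that depolymerises microtubules, at 200 ng/ml for 6 hours and collected by mitotic shake-off. In 2 further groups the cells were collected 1 or 3 hours after release from this block, and asynchronous cells received no drug.

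The deposited data analysed here were 1 set of coordinates of 76872 accessible regions, common to all libraries. It holds no value per library, so depth is unknown and no region can be assigned to arrested, released or asynchronous cells. The values below therefore describe where the genes of respiration lay in open chromatin somewhere in the series, without a comparison between groups, and no difference between sets of genes was tested.

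Oxidative phosphorylation is the set of reactions in the inner mitochondrial membrane that turns the energy of nutrient oxidation into ATP. Complexes I and II take electrons from NADH and succinate, complex III passes them to cytochrome c, complex IV hands them to oxygen, and complex V uses the proton gradient so formed to make ATP. Most subunits are encoded in the nucleus and imported. The 13 proteins encoded in the mitochondrial genome lie outside the rule, and the list held 0 regions on that genome. Pluripotent cells cultured with LIF and these inhibitors are known to respire as well as to use glycolysis. Several subunits of complex IV exist as a form made in nearly all cells and a form made in muscle, lung or testis.

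Accessible regions lay at nearly all genes of respiration. A gene was counted as having a region at an end when any base of a region came no farther than 1 kb from one of its outer limits. Of the 96 genes, 87 had such a region (90.6%, 95% Wilson interval 83.1 to 94.99%), against 62.0% of all protein-coding genes. A region anywhere in the gene or within 1 kb of it was found for 90 of the 96 genes (93.8%), against 73.6% of all genes. No region served as the end region of 2 members, since the 87 genes had 105 distinct regions at their ends. The genes were short, with a median length of 7.23 kb against 17.2 kb over all genes, and short genes carried end regions less often. Among genes under 5 kb, 26 of 31 members (83.9%) had one, against 37.3% of all genes of that length. From 5 to 10 kb the count was 36 of 36 members, against 61.1%, and from 10 to 20 kb it was 11 of 15 (73.3%), against 67.3%.

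The regions sat over the starts of the genes. The RefSeq promoter table gave a start and a strand for 78 of the 96 members, and a region covered at least 1 start of 74 of these (94.9%), against 53.3% of the 17492 protein-coding genes in the table. The 18 members without an entry included Cox4i2, Cox6a2, Cox8c and Ndufb4c, which had no region in the gene or within 1 kb. Of the same 78 genes, 74 had a region within 1 kb of the limit on the start side, against 59.0% of all genes, and 8 (10.3%) had one within 1 kb of the far limit, against 11.7%. The profile of regions around starts reached 94.0% of the 83 member starts at the start itself, and 49.4% of the starts of other genes. At 500 bp downstream the shares were 19.3% and 16.9%. A covering region reached a median of 280.5 bp upstream and 328 bp downstream of a member's start. For other covered starts these medians were 342 and 319 bp.

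**Figure D1:**
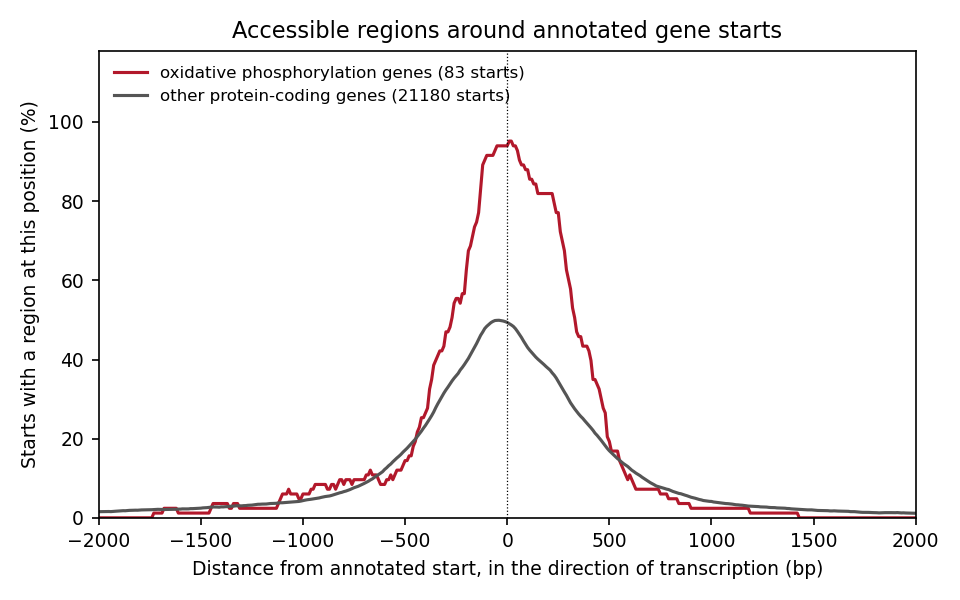
Share of annotated starts (%) with an accessible region at each distance from the start (bp), for 83 starts of oxidative phosphorylation genes and the starts of other protein-coding genes. The member curve reaches 94.0% at the start and both curves lie under 20% at 500 bp downstream.

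Only 4 genes with an annotated start had no region over it. Ndufs4, an accessory subunit of the iron-sulfur part of complex I, had an 825 bp region ending 6 bp from its start. Ndufa13, also known as Grim19, had 4 regions at its ends, the nearest of them 230 bp from the start. Cox8b, a muscle form, had its nearest region 2893 bp away, and Ndufb4b, a 471 bp gene related to Ndufb4, had its nearest 65852 bp away.

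Counted by complex, all members without a region at an end belonged to complexes I and IV. A region at an end was found for all 17 genes of complex V, all 8 of complex III, all 4 of complex II and all 8 assembly factors of complex I named Ndufaf. Complex I subunits had one in 36 of 39 genes (92.3%) and complex IV in 14 of 20 (70.0%, 95% Wilson interval 48.1 to 85.5%). The share over all protein-coding genes, 62.0%, lay inside the interval of complex IV and below that of complex I subunits. These differences were not tested. Complex IV holds the 8 tissue-restricted or inducible isoforms treated below, of which 4 had a region at an end. The genes without a region at an end included Ndufb4b and Ndufb4c in complex I and Cox4i2, Cox5a, Cox6a2, Cox7a2, Cox8b and Cox8c in complex IV.

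For Cox5a and Cox7a2 the outer limit of the annotation lay far from an open region inside the gene. Cox5a, a core nuclear subunit of complex IV, had a 283 bp region over its annotated start, which lies 3.904 kb inside the outer limit. Cox7a2, the ubiquitous form of subunit VIIa, had a 617 bp region over a start 11.6 kb inside the limit. Ndufb4b and Ndufb4c are each under 0.5 kb long and related to Ndufb4, and neither had a region in or within 1 kb of the gene. Ndufb4 itself had a 498 bp region at an end. The sources used here do not give how reads matching several near-identical copies were handled, so the values at such copies are uncertain.

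The width of the end regions was close to that of other genes. For each gene with a region at an end, the widest one was taken. Its median over 87 members was 689 bp (quartiles 550 and 838.5 bp, range 147 to 1562 bp), against 660 bp (434 and 884.5 bp) over 13567 genes. By complex the medians were 708.5 bp for complex I subunits, 656 bp for its assembly factors, 717.5 bp for complex II, 763 bp for complex III, 563.5 bp for complex IV and 680 bp for complex V. In complex II, the succinate dehydrogenase of the citric acid cycle, the flavoprotein gene Sdha had a region of 941 bp and the membrane anchor gene Sdhd one of 877 bp. The other anchor gene, Sdhc, had 558 bp and the iron-sulfur subunit gene Sdhb 453 bp. All 4 complex II regions touched an outer limit of the gene.

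The widest regions belonged to Cox6b2 with 1562 bp, Ndufaf2 with 1194 bp, Ndufa11 with 1180 bp, Ndufb5 with 1108 bp and Ndufaf3 with 1039 bp. Each of the 5 was shared with an end of a neighbouring gene. How often equally wide regions of all genes were shared was not counted. The narrowest were 147 bp at Cox7b2, 152 bp at Atp5d, 193 bp at Ndufa1, 347 bp at Ndufaf1 and 367 bp at Ndufc2. Atp5d, the delta subunit of ATP synthase, had a further region of 257 bp over both of its annotated starts, 3.58 and 3.62 kb inside the outer limit. The X-linked members were Ndufa1 with 193 bp, Cox7b with 389 bp and Ndufb11 with 885 bp. The X chromosome genes with an end region had a median of 619.5 bp, against 662 bp on the autosomes.

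**Figure D2:**
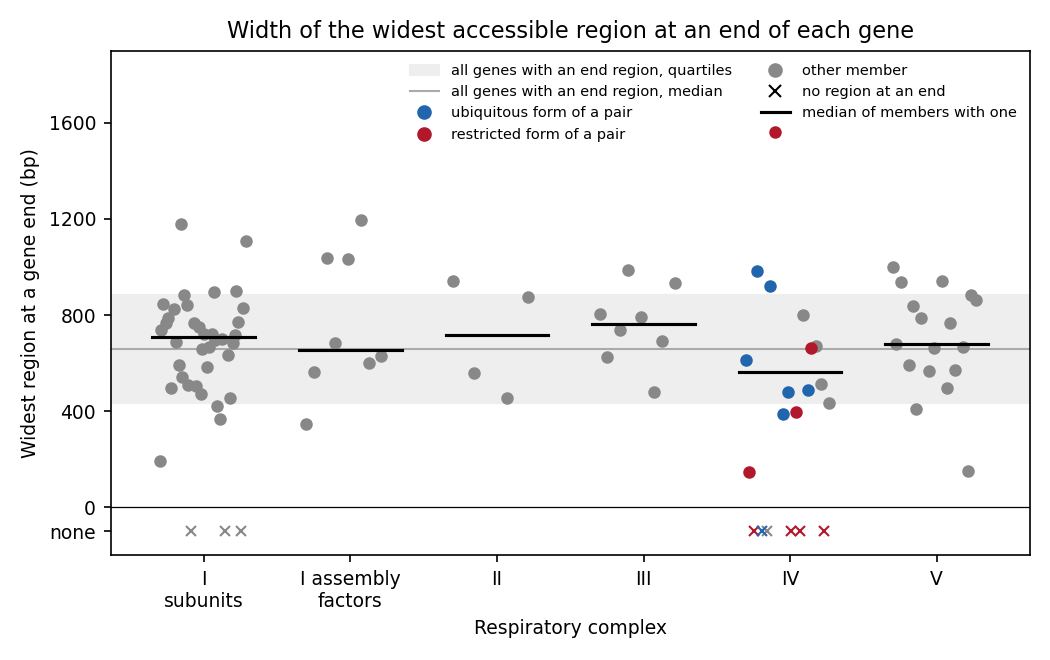
Width (bp) of the widest accessible region at an end of each of the 96 genes, by complex, with crosses for the 9 genes without one; horizontal bars are medians of the members with a region, and the grey band spans the quartiles of all genes with a region. Complexes II, III and V and the assembly factors have no crosses, and Cox6b2, the highest point, lies at 1562 bp.

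Shared ends were frequent. In 44 of the 96 genes (45.8%) a region at an end was also at an end of another protein-coding gene, against 16.7% of all genes. Genes without an end region count as not sharing in these shares, and members had an end region more often. Counting only genes with an end region, 50.57% of members shared one, against 26.97% of all genes. For such genes under 5 kb the shares were 50% of members and 36.63% of all genes. From 5 to 10 kb they were 50% and 38.19%. By complex a shared end region was found for 19 of 39 complex I subunit genes, 5 of 8 assembly factor genes, 3 of 4 genes of complex II, 4 of 8 of complex III, 4 of 20 of complex IV and 9 of 17 of complex V. The strands given in the promoter table showed a head-to-head arrangement, with a start on the opposite strand at most 1 kb upstream or 100 bp downstream, for 23 of 78 members (29.5%), against 8.66% of all genes in the table. Shared end regions were wider, with medians of 744 bp in 44 members and 593 bp in the 43 members whose widest end region was not shared. Over all genes the medians were 761 and 624 bp.

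The partners included other mitochondrial and gene expression genes. Atp5j, which encodes coupling factor 6 of ATP synthase, shared regions of 940 bp at chromosome 16, 84834436 to 84835375, and 461 bp at 84835861 to 84836321 with Gabpa. Gabpa encodes the ETS factor GABP alpha, a known regulator of respiratory genes, and the nearest starts of the 2 genes lay 148 bp apart. Sdhd shared its region with Timm8b, a gene of the mitochondrial import machinery, with starts 52 bp apart. Ndufb5 and Ndufs6 shared theirs with Mrpl47 and Mrpl36, which encode mitochondrial ribosomal proteins. Ndufa7 faced Rps28, a cytosolic ribosomal protein gene, with starts 10 bp apart, and Ndufaf2 faced the DNA repair gene Ercc8 at 113 bp. Ndufaf3 shared its widest region with both Dalrd3 and Impdh2.

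At both limits of the gene a region was found for 10 members (10.4%), against 8.47% of all genes. In 7 of the 10 these were separate regions, at Atp5a1, Atp5b, Ndufa7, Ndufa13, Ndufaf8, Ndufb6 and Ndufb9. All 7 shared at least 1 of their end regions with a neighbour. Over all genes, 1571 of 1854 had separate regions, and how many of the 1571 shared one was not counted. At Atp5b, the catalytic beta subunit of ATP synthase, a 448 bp region covered the start and a 496 bp region beyond the far limit was also at an end of Baz2a.

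Ubiquitous and restricted isoforms were compared by their regions. The forms compared are Cox4i1 with Cox4i2, Cox6a1 with Cox6a2, Cox6b1 with Cox6b2, Cox7a2 with Cox7a1, Cox7b with Cox7b2, Cox8a with Cox8b and Cox8c, and Ndufa4 with Ndufa4l2. Cox4i2 is known from lung, Cox6a2, Cox7a1 and Cox8b from heart and skeletal muscle, Cox6b2, Cox7b2 and Cox8c from testis, and Ndufa4l2 is induced by hypoxia. Of the 7 ubiquitous forms, 6 had a region at an end and the remaining one, Cox7a2, had a region over its annotated start. Of the 8 restricted forms, 4 had a region at an end and the other 4, Cox4i2, Cox6a2, Cox8b and Cox8c, had none in or within 1 kb of the gene. With 15 genes in all, the intervals were wide, at 48.7 to 97.4% for the ubiquitous and 21.5 to 78.5% for the restricted forms (95% Wilson intervals), and they overlap. The share was 85.7% for the ubiquitous and 50% for the restricted forms, against 62.0% of all protein-coding genes, a value inside both intervals. The difference was not tested. Counting only the start side of genes in the promoter table, 5 of 6 ubiquitous and 3 of 4 restricted forms had a region. The table lacked Cox4i1, Cox4i2, Cox6a2, Cox8c and Ndufa4l2. Of these, Cox4i2, Cox6a2 and Cox8c are restricted forms without a region at an end, so that count covers a different set of genes. Without the restricted forms, 83 of 88 members (94.3%) had a region at an end.

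Pair by pair, Cox6a1 had a 478 bp region over its start at chromosome 5, 115348707 to 115349184, while the nearest region to its muscle counterpart Cox6a2 lay 17.6 kb from the gene. Cox8a had a 923 bp region over its start at chromosome 19, 7217160 to 7218082. The nearest regions to Cox8b and Cox8c lay 2.89 and 6.30 kb from those genes. Cox4i1 had a 612 bp region at its lower limit, shared with Emc8, and the nearest region to Cox4i2 lay 1.43 kb from the gene. In these 3 families the ubiquitous form alone carried a region at its end.

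In the Cox6b, Cox7b and Ndufa4 families both forms carried a region at an end, and in the Cox7a family the restricted form alone did. Cox7a1 had a 395 bp region over its start at chromosome 7, 30183824 to 30184218, and Cox7a2 had its 617 bp region over the start inside the gene at chromosome 9, 79759373 to 79759989. Cox7b2 had a 147 bp region over its start and Cox7b one of 389 bp. Cox6b2 lay whole within a region of 1562 bp at chromosome 7, 4751665 to 4753226, which was also at an end of Fam71e2, and Cox6b1 had a 490 bp region over its start. Ndufa4l2 had regions of 663 and 135 bp at its lower limit, both also at an end of Stac3, and Ndufa4 had a 982 bp region over its start, shared with Phf14. Of the 4 restricted forms with a region, Cox6b2 and Ndufa4l2 thus shared it with a neighbour, which left Cox7a1 and Cox7b2 with regions at no other gene's end.

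**Figure D3:**
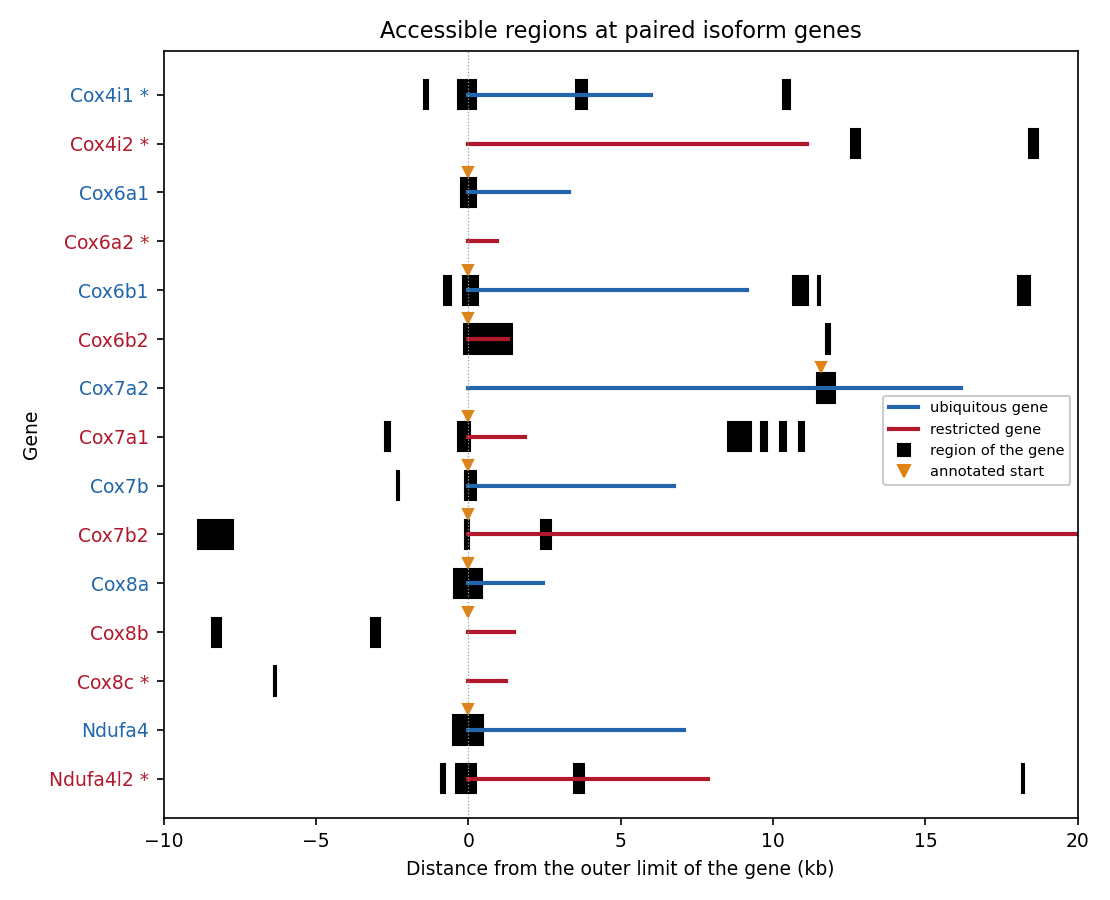
Accessible regions (black boxes) at 15 paired isoform genes, from 10 kb before to 20 kb after the outer limit on the start side (kb), with annotated starts as triangles. Genes with an asterisk have no strand in the promoter table and are drawn from the lower limit; regions at ends of other genes only are not drawn, and no box touches Cox4i2, Cox6a2, Cox8b or Cox8c.

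The letters around the starts of 4 of these families are given for the ubiquitous and the restricted forms. Each line gives 120 bases before the annotated start and 30 bases from it, 5′ to 3′ on the strand of the gene, from RefSeq on GRCm38.p6, with capitals for matches to the motifs described below. They lie at chr9:79759824-79759973 (minus strand) for Cox7a2, chr7:30184051-30184200 (plus) for Cox7a1, chr19:7217587-7217736 (minus) for Cox8a, chr7:140900417-140900566 (minus) for Cox8b, chrX:106015580-106015729 (plus) for Cox7b, chr5:71548176-71548325 (minus) for Cox7b2, chr7:30626085-30626234 (minus) for Cox6b1 and chr7:4753065-4753214 (minus) for Cox6b2. All of these starts but that of Cox8b lay under a region.
Cox7a2: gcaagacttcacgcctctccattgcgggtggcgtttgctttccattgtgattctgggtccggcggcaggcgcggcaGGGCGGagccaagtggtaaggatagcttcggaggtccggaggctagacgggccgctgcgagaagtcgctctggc
Cox7a1: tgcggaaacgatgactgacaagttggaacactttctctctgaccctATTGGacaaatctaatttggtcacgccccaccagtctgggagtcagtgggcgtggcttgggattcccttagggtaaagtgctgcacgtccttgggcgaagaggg
Cox8a: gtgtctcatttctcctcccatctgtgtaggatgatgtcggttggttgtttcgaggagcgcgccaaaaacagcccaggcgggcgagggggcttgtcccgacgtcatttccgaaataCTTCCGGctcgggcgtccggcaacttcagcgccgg
Cox8b: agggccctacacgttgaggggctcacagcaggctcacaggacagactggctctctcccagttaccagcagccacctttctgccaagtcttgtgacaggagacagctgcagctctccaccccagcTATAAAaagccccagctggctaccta
Cox7b: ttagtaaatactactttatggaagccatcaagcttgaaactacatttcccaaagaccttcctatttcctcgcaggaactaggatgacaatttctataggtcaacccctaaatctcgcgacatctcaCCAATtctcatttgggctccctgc
Cox7b2: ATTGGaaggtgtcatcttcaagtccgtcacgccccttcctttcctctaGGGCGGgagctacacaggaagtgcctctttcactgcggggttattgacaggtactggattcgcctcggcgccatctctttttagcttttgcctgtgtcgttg
Cox6b1: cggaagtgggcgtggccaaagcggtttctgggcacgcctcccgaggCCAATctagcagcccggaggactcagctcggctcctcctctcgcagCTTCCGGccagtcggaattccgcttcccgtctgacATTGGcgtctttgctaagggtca
Cox6b2: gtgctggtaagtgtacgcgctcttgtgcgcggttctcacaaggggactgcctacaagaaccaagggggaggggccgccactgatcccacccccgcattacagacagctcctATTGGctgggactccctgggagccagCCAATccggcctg

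The promoter windows of the ubiquitous forms were richer in CpG, with Cox7b as the exception. CpG content is given here as the observed over the expected number of CG pairs in the window from 250 bases before to 50 bases after the start. It was 1.08 for Cox6a1, 0.842 for Cox8a, 0.833 for Cox7a2, 0.807 for Cox6b1, 0.668 for Ndufa4 and 0.368 for Cox7b. Among the restricted forms in the table it was 0.564 for Cox7b2, 0.432 for Cox6b2, 0.333 for Cox7a1 and 0.115 for Cox8b. The median over all 83 member starts was 0.829, against 0.567 over all 21263 starts of protein-coding genes. Among starts with a ratio of at least 0.6, 66 of 69 member starts (95.7%) lay under a region, against 81.2% of all such starts. Among starts with a lower ratio, 12 of 14 member starts (85.7%) did, against 20.7%. The uncovered 2 of the 14 were those of Cox8b and Ndufb4b.

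Motifs of factors known to regulate respiratory genes were searched on both strands of the same 300-base windows. GCGCANGCG, the core of the NRF1 motif, was found in 23 of 83 member windows (27.7%), against 8.58% of all windows and 15.5% of the windows of other genes whose start lay under a region. CCGGAAG, an ETS motif of the kind bound by GABP, was found in 19 (22.9%), against 11.6% of all windows and 20.1% of the other covered ones. AAGATGG, part of the YY1 motif, was found in 12 (14.5%), against 6.24% and 7.27%. In 11 of the 12 the match reached the start or lay beyond it, and in 10 it was on the strand of the gene. The GC box GGGCGG, a motif of SP and KLF factors, was found in 36 (43.4%), against 46.2% of all and 69.8% of the other covered windows. The share in members was thus above that in other covered windows for NRF1 and YY1, close to it for the ETS motif (on the strand of the gene alone, 8.43% against 11.1%), and below it for GGGCGG.

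By complex, NRF1 matches were found in 7 of 18 windows of complex V, 11 of 43 of complex I with its assembly factors and 1 of 14 of complex IV, the window of Cox6a1. Of the 3 complex II genes with an annotated start, Sdha had an NRF1 match at 3 positions, Sdhb an ETS match and Sdhd both. The share of all windows with either motif was not counted. Atp5g2, Atp5k, Ndufa11 and Ndufaf4 were among the other genes with an NRF1 match. Less frequent motifs were ACTACAATT of ZNF143 in 3 windows (3.61%, against 0.508% of all and 0.851% of the other covered windows), 2 of them overlapping windows of Atp5d, and TCAAGGTCA, bound by the estrogen-related receptors, in 2 (2.41%, against 0.334% and 0.172%), at Atp5g3 and Sdhd. TGACGTCA, the cyclic AMP response element, was found in 4 (4.82%, against 2.23% and 3.85%), and CCAAT in 35 (42.2%, against 38.2% and 41.2%). TATAAA was found in 9 (10.8%), below the 12.6% of all windows and above the 5.70% of the other covered ones. On the strand of the gene alone the shares were 3.61%, 8.26% and 3.63%, so members did not exceed the other covered windows. Both overlapping windows of Ndufa7 were among the 9. The TATAAA matches began at positions from -235 to 4 relative to the start, with a median of -122. The muscle motif CTAAAAATA of MEF2 was found in 0 of 83, against 0.409% and 0.191%. In member windows a single pair of matches to different motifs overlapped, at Ndufs3. A match describes letters in the window and not binding.

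**Figure D4:**
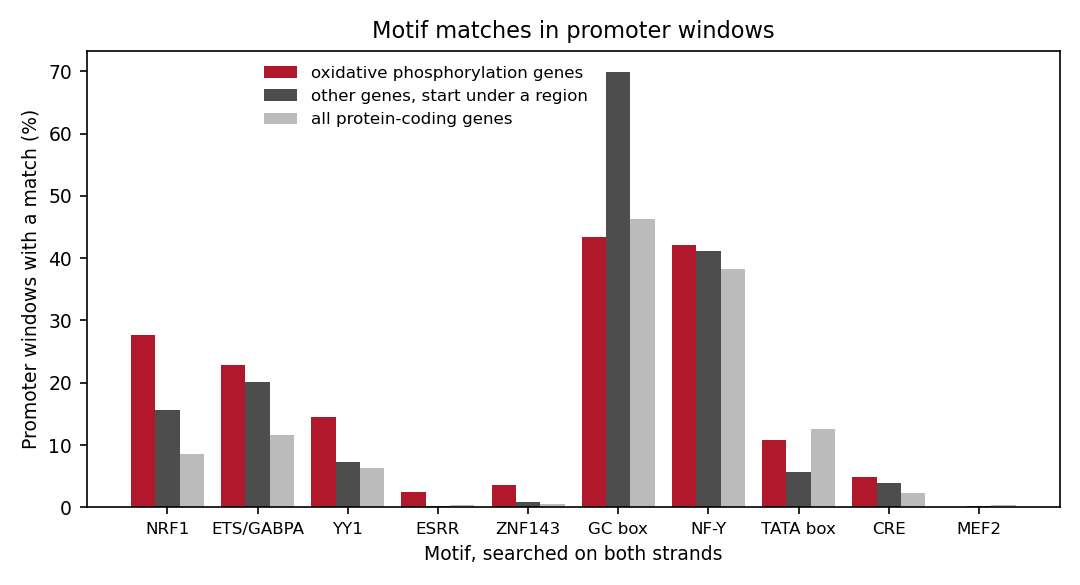
Share (%) of promoter windows of 300 bases with at least 1 match to each of 10 motifs on either strand, for 83 member windows, other windows whose start lies under a region and all windows of protein-coding genes. NRF1 reaches 27.7%, 15.5% and 8.58% and the GC box 43.4%, 69.8% and 46.2%.

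The promoters of Cox6a1, Sdhd, Ndufs3 and Atp5j are shown for their NRF1, ETS and YY1 matches, over the same span from the start and with the same use of capitals. They lie at chr5:115348929-115349078, chr9:50603820-50603969, chr2:90904692-90904841 and chr16:84834947-84835096, all on the minus strand. In Cox6a1 the matches are, in order, those of NRF1, NF-Y (the factor of CCAAT), the GC box and ETS, the last 2 on the opposite strand. In Sdhd they are those of NRF1, ETS on the opposite strand, and the GC box. Ndufs3, which faces Kbtbd4, has ETS matches on both strands, and Atp5j, which faces Gabpa, has a YY1 match followed by an ETS match.
Cox6a1: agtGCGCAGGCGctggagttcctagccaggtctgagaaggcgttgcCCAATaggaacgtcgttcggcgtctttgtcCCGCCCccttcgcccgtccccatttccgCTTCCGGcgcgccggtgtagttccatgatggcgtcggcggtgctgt
Sdhd: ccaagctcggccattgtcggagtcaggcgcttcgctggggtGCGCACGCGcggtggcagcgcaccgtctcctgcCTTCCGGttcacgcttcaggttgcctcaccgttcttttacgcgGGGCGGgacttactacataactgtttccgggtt
Ndufs3: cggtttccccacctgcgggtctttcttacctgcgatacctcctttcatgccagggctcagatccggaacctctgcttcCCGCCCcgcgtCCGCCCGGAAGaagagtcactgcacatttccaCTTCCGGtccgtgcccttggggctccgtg
Atp5j: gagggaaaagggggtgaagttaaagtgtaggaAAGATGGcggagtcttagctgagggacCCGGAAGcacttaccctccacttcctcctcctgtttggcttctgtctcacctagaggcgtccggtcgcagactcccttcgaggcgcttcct

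Distal regions were about as many as at other genes. They were counted outside the gene, more than 1 kb and up to 50 kb from its nearer limit, and at an end of no protein-coding gene. The median was 3 regions per member (quartiles 2 and 6) and 3 over all genes (1 and 5), with means of 4.07 and 3.43. No distal region was found for 8 members (8.33%), against 12.4% of all genes. They included Atp5e, Ndufa6, Ndufab1, Ndufaf2, Ndufb3, Ndufb4b and Ndufs3. The highest counts were 14 at Ndufs1, the largest subunit of complex I, 12 at Atp5a1 and at Cox7a2l, and 11 at Ndufa13, Ndufaf6 and Sdhc. Near Ndufs1 a 1211 bp region lay 4.45 kb from the gene, and near Sdhc regions of 1419 and 1295 bp lay 26.0 and 49.0 kb away. Cox7a2l encodes a factor that joins complexes III and IV. By complex the medians ran from 1.5 for the assembly factors, through 2 for complex II, 2.5 for complex III and 3 for complex I subunits, to 4 for complex IV and 6 for complex V.

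The isoforms did not separate by distal regions. The ubiquitous forms had a mean of 4.57 and the restricted forms of 4.75, with ranges of 1 to 8 and 1 to 9. Cox7a1 had 9 and Cox6b1, on the same chromosome, had 8. Cox4i2 had 7, Cox6a2 and Cox8c had 4 and Cox8b had 3, so the restricted forms without a region at an end were not without regions nearby.

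**Figure D5:**
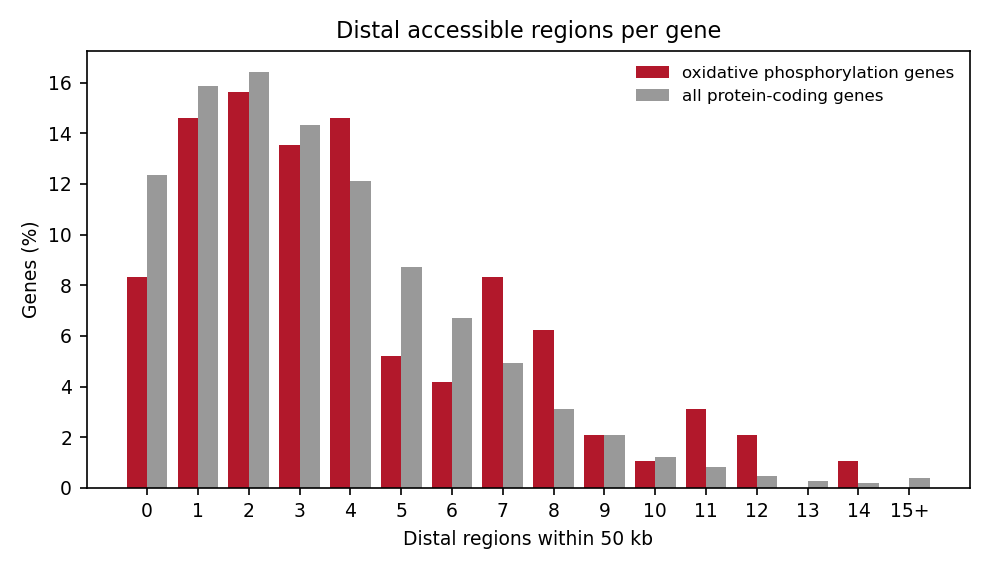
Share of genes (%) by number of distal accessible regions within 50 kb, for the 96 oxidative phosphorylation genes and all 21887 protein-coding genes. Genes with no such region make up 8.33% and 12.4%, and the medians of both sets are 3.

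Regions inside the genes, away from both ends, were found for 21 members (21.9%), against 43.2% of all genes, and members were shorter. Per 100 kb of gene the counts were 3.31 and 2.78. Ndufaf2 had 5, Ndufs4 had 4 and Cox5a and Cox7b2 had 3 each, and of these 4 genes all but Cox5a are over 100 kb long. The 39 inside regions had a median width of 202 bp and the 391 distal ones of 221 bp, against 661 bp for the 105 at ends.

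Related genes outside the rule gave the following counts. Over all protein-coding genes, 62.0% had a region at an end and 16.7% shared one. Of those in the promoter table, 53.3% had a region over a start. Of 41 further assembly factors of the respiratory complexes, 40 had a region at an end (97.6%), and the exception, Atpaf2, had a region over its start. Mitochondrial ribosomal protein genes had one in 75 of 78 cases (96.2%), with 40 of 78 (51.3%) sharing it, values near those of the respiratory genes. All 5 genes of cytochrome c and the ADP/ATP carrier had a region at an end and a region over the start. The widest at an end measured 842 bp at Cycs and 456 bp at Cyct, the testis form of cytochrome c. At the carriers the widest measured 569 bp at Slc25a4, the heart and muscle form, 446 bp at Slc25a31, the testis form, and 301 bp at Slc25a5.

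Of 21 regulators of mitochondrial genes, 17 had a region at an end (81.0%). Gabpb1, Hif1a, Mef2a and Mef2c had none but carried regions over an annotated start inside the gene. Nrf1 and Yy1, whose motifs are described above, had end regions of 682 and 921 bp. Pprc1, a coactivator related to PGC-1, had the widest at 1453 bp, and Esrrg, an estrogen-related receptor gene, the narrowest at 74 bp. Ppargc1a, which encodes PGC-1 alpha, had end regions of up to 578 bp, but the nearest region to an annotated start in the table lay 15074 bp away.

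Pseudogenes of the family served as a further reference, chosen after the values above were seen. Of 19 pseudogenes whose symbols match the same rule, 3 had a region within 1 kb of a limit (15.8%), against 8.92% of 10429 pseudogenes. They were Ndufa11b, Ndufa12-ps and Ndufs6b, at distances of 202, 48 and 745 bp.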

How the data were processed

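ATAC-seq was made from 8 libraries in 4 groups. The authors deposited 1 list of regions, with starts and ends in base pairs and no measured value. Per the submitters' processing notes, MACS2 2.1.1, Bowtie2, cutadapt, SAMtools, Picard and bedtools were used with build GRCm38 (mm10). The sources used here do not give parameters, the Tn5 shift or the merging of libraries, and merging decides whether a region open in 1 library is listed. Starts were converted to count from 1. Regions were overlapped with RefSeq gene limits of GRCm38.p6 and with starts, strands and promoter sequences from its promoter table, in Python 3.11.15 with pandas 2.3.3 and numpy 2.4.6. Wilson intervals came from statsmodels 0.14.6 and cover counting error only. The overlap and motif code was tested on simulated data.

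Values are counts, shares and medians beside those of all protein-coding genes. No test was made, because no value per library was analysed here. Members, gene lists and settings were chosen with earlier results of these data known. Genes were named by a fixed rule: the isoform and carrier pairs, complex II, members without an end region, those with the most or no distal regions, the 5 widest and 5 narrowest, separate regions at both ends, the most inside regions, and regulators without an end region. Others were named after their values were seen. The values of 1 gene are not reported here. The promoter table held 78 of 96 members.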

Additional observations from a re-analysis of the deposited data

How the results depend on the processing

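No paired analysis was possible because the regions carry no measurement for any single library, so no replicate could be left out either. Of 54 alternatives, 40 left the value within its 95% Wilson interval (shares) or within 1.5 times (counts, means, medians). Isoform counts were compared as numbers of genes, so 3 of 4 restricted forms on the start side counted as unchanged from 4 of 8. The share of members with a region at an end ran from 88.5% (within 500 bp) to 94.9% (start side only, or over a start of the promoter table), and the restricted forms with one from 3 (at least 150 bp) to 5 (within 2 kb) of 8. On the start side only, 3 of 4 restricted and 5 of 6 ubiquitous forms in the promoter table had one. That table lacks Cox4i2, Cox6a2 and Cox8c, restricted forms without a region at an end. The 94.9% above covers only the 78 members it holds. Distal means moved with the window by construction, to 2.05 (ubiquitous forms 2, restricted 2.25) at 25 kb and 7.98 (9 and 9.38) at 100 kb, against 1.74 and 6.73 over all genes. With regions of at least 150 bp the ubiquitous mean was 3, and with regions at ends of other genes counted the mean was 6.15 over members and 7.25 for restricted forms. On the strand of the gene only, shares fell by construction to 8.43% for the ETS motif (6.30% of all and 11.1% of other covered windows, so below the latter), 0 for TCAAGGTCA, 28.9% for GGGCGG, 22.9% for CCAAT and 3.61% for TATAAA. For TATAAA the shares of all and of other covered windows were then 8.26% and 3.63%. The motif search in the regions themselves was not run, since no genome sequence was used here. The start of the promoter table, the set without restricted forms and shared ends within 500 bp or 2 kb were added after seeing the data.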
